A study of Mus musculus with 18 samples.

Results

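The 10 imprinted genes Mest, Snrpn, Peg3, Peg10, Plagl1, Impact, Igf2r, Grb10, H19 and Meg3 were followed through 18 mouse oocyte libraries. They were taken by gene symbol from the table of TPM (a transcript level, in which the reads of a gene are scaled for gene length and library total), and their read counts were taken by the same Ensembl identifier. All 10 were found, among 28252 genes in the TPM table and 53715 genes in the count table.

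RNA was sequenced from oocytes at 3 stages, those enclosed in primordial follicles, those enclosed in primary follicles and metaphase II (MII) oocytes, the mature eggs that await fertilisation, with 3 libraries of *in vivo* growth and 3 of *in vitro* growth at each stage. The question of the study was how growth in culture changes the oocyte transcriptome at each stage. The mice whose ovaries were taken at 7 and 14 days were F1 females of the cross C57Bl/6j x CBA/J. The study's methods give no separate strain for the adult females that gave the *in vivo* MII oocytes. The primordial and primary stages were collected by laser capture microdissection (LCM), which cuts single cells from a section with a laser, from paraffin sections of fixed ovaries, and RNA from several caps was pooled per stage. In the *in vivo* group these ovaries came from mice aged 14 days, and in the *in vitro* group from mice aged 7 days whose ovaries were then cultured for 7 days in α-MEM with fetal bovine serum, insulin, transferrin, selenium and recombinant FSH. The LCM groups therefore differ in hormone exposure as well as in culture. MII oocytes of the *in vitro* group came from 7-day-old ovaries cultured for 7 days, whose secondary follicles were then grown in alginate for 12 days, again with recombinant FSH, and induced to ovulate with hCG. MII oocytes of the *in vivo* group came from superovulated adult mice, and each MII library held 10 oocytes. The MII groups therefore differ in the age of the mouse and in hormone treatment as well as in culture. LCM and MII libraries were made with different kits, so stage and kit cannot be told apart between them, and they are set side by side without a test. The labels do not say that the 3 libraries of a group came from separate animals, so the p-values measure only the spread between these libraries.

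Imprinted genes are transcribed mainly from the allele inherited from 1 parent. The mark that sets the choice is DNA methylation laid down in the germline, and at most imprinted loci it is laid down in the growing oocyte. Of these genes, Mest, Snrpn, Peg3, Peg10, Plagl1 and Impact are known in somatic tissues as paternally expressed, and Igf2r, Grb10, H19 and Meg3 as maternally expressed in most tissues. The regions that control H19 and Meg3 are known to take their methylation in sperm, whereas those of the other 8 take it in the oocyte. The counts do not separate the alleles and methylation was not measured, so the values below are total RNA levels.

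Promoters of RefSeq (GRCm38.p6, from 250 bases before to 50 bases after the start of transcription) were taken for 7 of the 10 genes. Those of Peg10, Impact and H19 were not taken, which does not show that RefSeq lacks them. The promoters of Mest and Snrpn are shown because these genes had the highest levels in MII oocytes, and that of Peg3 because this gene, like Igf2r, was read in all 18 libraries. They are written 5′ to 3′ along the gene's strand, capitals mark CG dinucleotides, the sites that can carry methylation, and where a gene had several promoters the one with the most is given. They lie at chr6:30737800-30738099 (plus strand) for Mest, chr7:60005150-60005449 (minus strand) for Snrpn and chr7:6730370-6730669 (minus strand) for Peg3.
Mest: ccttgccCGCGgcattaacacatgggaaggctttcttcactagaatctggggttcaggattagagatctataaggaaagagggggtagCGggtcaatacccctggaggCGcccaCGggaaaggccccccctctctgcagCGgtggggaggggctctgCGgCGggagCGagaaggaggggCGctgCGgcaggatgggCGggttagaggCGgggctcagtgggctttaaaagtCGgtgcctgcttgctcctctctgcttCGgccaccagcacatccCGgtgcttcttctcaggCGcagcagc
Snrpn: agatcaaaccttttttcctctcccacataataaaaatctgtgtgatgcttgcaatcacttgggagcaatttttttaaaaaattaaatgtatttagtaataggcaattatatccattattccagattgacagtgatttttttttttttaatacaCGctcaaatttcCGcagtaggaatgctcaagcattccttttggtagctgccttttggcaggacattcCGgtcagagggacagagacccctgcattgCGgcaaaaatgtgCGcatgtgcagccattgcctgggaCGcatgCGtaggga
Peg3: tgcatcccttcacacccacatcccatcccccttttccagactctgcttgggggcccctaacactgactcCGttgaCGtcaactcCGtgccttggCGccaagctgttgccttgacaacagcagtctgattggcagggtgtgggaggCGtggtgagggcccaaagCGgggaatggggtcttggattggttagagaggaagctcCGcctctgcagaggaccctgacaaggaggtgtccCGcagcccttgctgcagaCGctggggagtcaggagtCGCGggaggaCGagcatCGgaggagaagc

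The Mest window held 17 CG dinucleotides, that of Peg3 13 and that of Snrpn 7, against a median of 7 over 32851 mouse promoters of the same length. Among the other promoters, Grb10 held 45, Igf2r 34, Plagl1 26 and Meg3 13. The letters TGCCGC, known as the core bound by the imprint-maintaining zinc finger protein Zfp57 when methylated, were found on either strand 2 times in the Mest window and 1 time each in those of Snrpn, Grb10, Plagl1 and Meg3, with no match for Igf2r or Peg3. These letters occur in 11.6% of all promoters, and a match is a description of the sequence only. On GRCm38 the transcription unit of Mest spans chr6:30723547-30748465, and Copg2 overlaps it on the opposite strand. Snrpn spans chr7:59982495-60140219 and shares its strand with Snurf, which is encoded on the same transcript. Igf2r spans chr17:12682406-12769664 and overlaps the antisense RNA Airn. H19 spans chr7:142575529-142578143 and contains Mir675 on its strand. Whether the counting used strand is not given in the sources used here, so reads of overlapping partners cannot be told apart.

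The LCM libraries held 15149564 to 29205503 counts and the MII libraries 7334817 to 9978830. A count of 3, used below as the floor of detection, equals 0.103 to 0.198 CPM in LCM and 0.301 to 0.409 CPM in MII libraries (CPM being the count scaled by the library total), and such floors cover counting error only. Despite the larger totals, 6048 to 13755 genes had a read in an LCM library and 14512 to 18239 in an MII library. Of 12 oocyte markers, 10 to 12 were over 3 reads in every library, and those at or below it were Bmp15, Oosp1, Figla or Lhx8. These 12 markers summed to 359 to 1924 TPM in LCM and to 10370 to 20890 TPM in MII libraries. In some LCM libraries this sum was below that of the stroma and theca markers given next, and in others above it. Captured cells were chosen by their shape and watched on the cap to keep granulosa cells out, per the study's methods. Markers of other ovarian cells were read in the LCM libraries, where 10 stroma and theca markers summed to 453 to 3524 TPM in 11 of them and to 29940 TPM in library 2 of the primary *in vivo* group, where Acta2 and Col1a1 led. In MII libraries this sum was 1.30 to 5.02 TPM. The sum of 12 granulosa cell markers was 24.3 to 2698 TPM in LCM and 29.6 to 76.5 TPM in MII libraries, that of 3 cumulus cell markers at most 2.32 TPM, that of 4 endothelial markers 0 to 69.7 TPM in LCM and 36.1 to 97.5 TPM in MII libraries, and that of 4 blood and immune markers 0 to 7503 TPM in LCM and 0 to 12.4 TPM in MII libraries. Library 2 of the primary *in vivo* group stands apart, and each named fold change that rests on it is given with and without it, or with the reads left without it.

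In MII oocytes, Mest and Snrpn were the most abundant of the 10 genes. Mest, which encodes an enzyme of the α/β hydrolase fold family, measured 393, 186 and 243 TPM *in vivo* and 313, 330 and 359 TPM *in vitro*. These levels lay above those of 98.2% of genes in the TPM table in the *in vivo* group and 98.6% in the *in vitro* group. Snrpn encodes SmN, a core protein of spliceosomal particles. It measured 41.8, 56.8 and 34.6 TPM *in vivo* and 37.5, 60.1 and 35.4 TPM *in vitro*, above 90.3% and 90.5% of genes. Snurf, its partner on the same transcript, was read in all 6 MII libraries too, at 75.6 to 196 TPM. It had 64 to 149 reads there, against 249 to 457 for Snrpn. TPM is scaled for gene length, and reads of the overlapping pair cannot be told apart, so their TPM levels are not compared.

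A middle group of genes was read in every MII library at lower levels. Grb10, an adaptor that binds the insulin and IGF receptors and restrains growth, measured 12.8, 9.30 and 7.58 TPM *in vivo* and 3.67, 14.6 and 7.36 TPM *in vitro*. Igf2r, the receptor that clears Igf2 into lysosomes, measured 8.95, 4.58 and 8.89 TPM *in vivo* and 0.201, 3.31 and 2.47 TPM *in vitro*. The growth-restraining zinc finger factor Plagl1 measured 3.78, 0.300 and 3.63 TPM *in vivo* and 7.24, 5.05 and 2.94 TPM *in vitro*. Of these 3 genes, Igf2r alone had all *in vitro* libraries below all *in vivo* libraries.

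Peg3, Meg3, Impact and Peg10 stood low in MII oocytes, and H19 was not read at all. Peg3, a zinc finger protein, ranged from 0.710 to 2.89 TPM, and the long non-coding RNA Meg3 from 0.196 to 2.22 TPM. Impact, an inhibitor of the kinase Gcn2 pathway, was over 3 reads in 4 of the 6 libraries and reached at most 1.32 TPM. Peg10, a gene derived from a retrotransposon and known for its role in placenta, had 5, 13 and 0 reads *in vitro* and no read in the 3 *in vivo* libraries. H19, the growth-restraining RNA next to Igf2, had 0 reads in all 6 MII libraries, which allows up to 0.301 to 0.409 CPM.

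**Figure D1:**
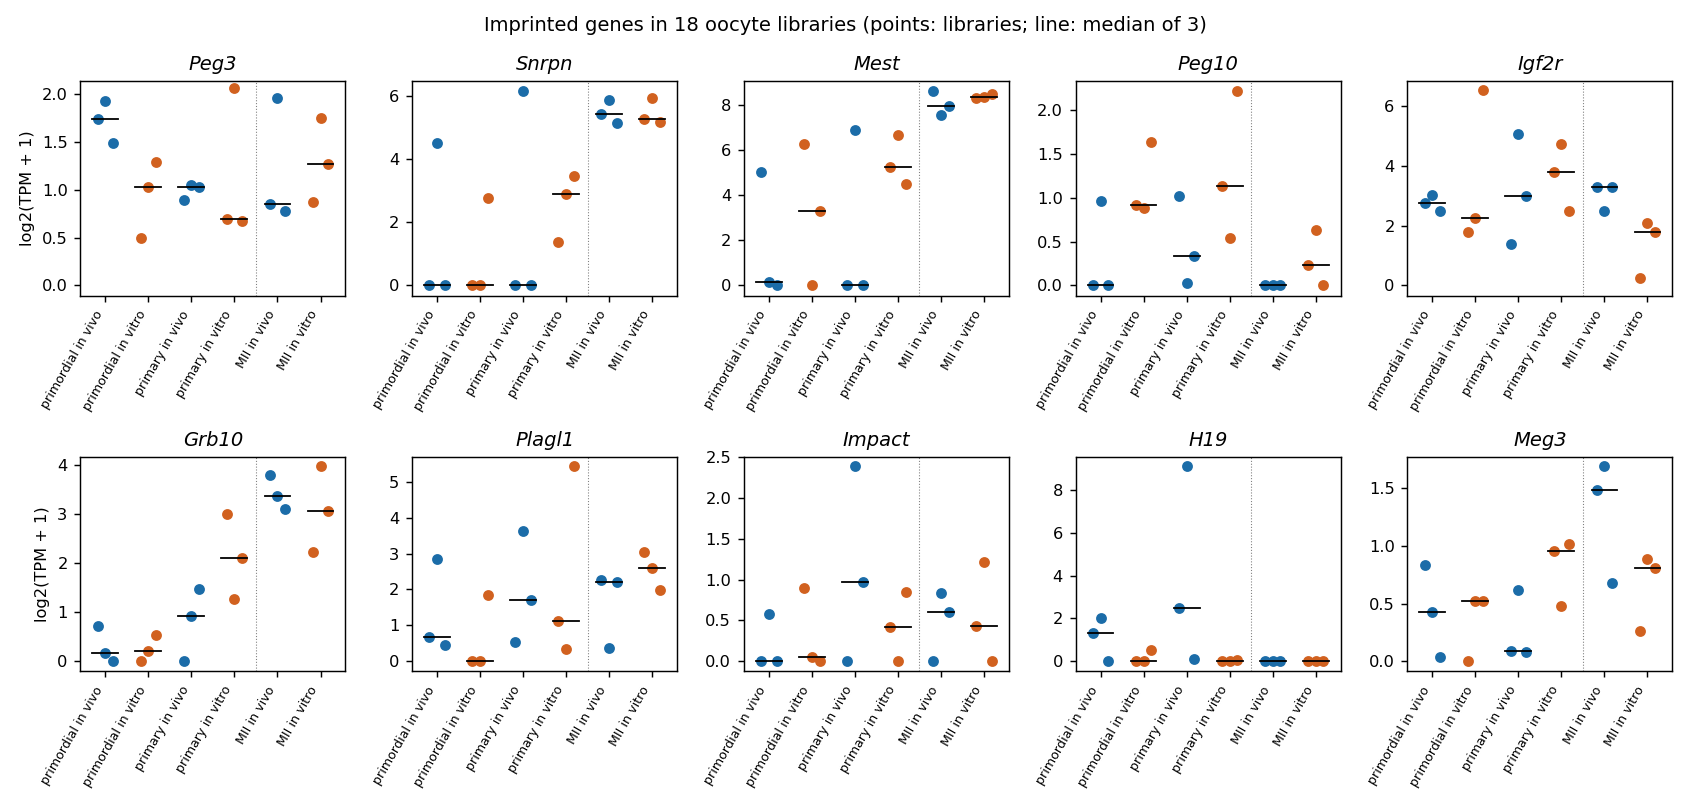
Level of each gene as log2(TPM + 1) in the 18 libraries, with 1 panel per gene and its own axis; points are libraries (blue *in vivo*, orange *in vitro*), bars are medians of 3, and the dotted line parts LCM from MII libraries. The MII points of Mest and Snrpn lie close together, at 186 to 393 TPM and 34.6 to 60.1 TPM, whereas their LCM points run from 0 to 118 TPM and from 0 to 70.5 TPM.

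In LCM oocytes the same genes were read in some libraries and missing in others of the same group. Between 3 and 9 of the 10 genes were over 3 reads in an LCM library and between 7 and 9 in an MII library. Only Peg3 and Igf2r were over 3 reads in all 12 LCM libraries. Grb10 and Peg10 were so in 9, Plagl1 and Meg3 in 10, Mest in 7, Snrpn and Impact in 6 and H19 in 5.

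The scatter of Mest and Snrpn within LCM groups was of the all-or-none kind. Mest had 869, 3 and 0 reads in the primordial *in vivo* group and 1396, 0 and 225 in the primordial *in vitro* group. In primary follicles it had 0, 3392 and 0 reads *in vivo* against 1018, 2971 and 678 *in vitro*. Snrpn was read in library 2 alone of both *in vivo* groups, with 333 reads at the primordial and 1111 at the primary stage. In vitro it was read in library 3 alone at the primordial stage, with 81 reads, and in all 3 libraries at the primary stage, with 24, 106 and 172. Snurf followed the same pattern, except that primary *in vitro* library 1 had no Snurf read. The coefficient of variation (SD over mean) of Mest was 1.29 over 12 LCM libraries and 0.252 over 6 MII libraries, and that of Snrpn was 2.09 and 0.253. These spans cover 4 groups in LCM and 2 in MII and are given as a description. Such scatter was not particular to imprinted genes. The oocyte marker Dazl had 5, 5232 and 82 reads in primary *in vivo* libraries, and the granulosa marker Foxl2 had 0, 8442 and 17852 in primordial *in vitro* libraries. Other markers, such as Zp2, were read in every LCM library.

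Igf2r and Peg3, though read in every LCM library, differed in spread. Igf2r had 380, 477 and 322 reads in primordial *in vivo*, 108, 305 and 5568 in primordial *in vitro*, 108, 2277 and 337 in primary *in vivo* and 850, 1821 and 351 in primary *in vitro* libraries. Primordial *in vitro* library 3, the highest of all at 91.6 TPM, alone carried 43.1% of the LCM reads of Igf2r. In that library the stroma and theca markers summed to 3524 TPM, the granulosa markers to 1111 TPM and the oocyte markers to 579 TPM. Peg3 stayed within 26 to 319 reads and 0.414 to 3.17 TPM. Other genes leaned on 1 library, which held 98.4% of the LCM reads of H19 (primary *in vivo* library 2), 65.9% of those of Plagl1 (primary *in vitro* library 3, 42.1 TPM), 60.8% of those of Snrpn and 58.9% of those of Impact (both primary *in vivo* library 2). In primary *in vitro* library 3 the granulosa markers summed to 2698 TPM, the highest of all libraries. The part of other ovarian cells in the levels of Igf2r and Plagl1 was not tested.

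**Figure D2:**
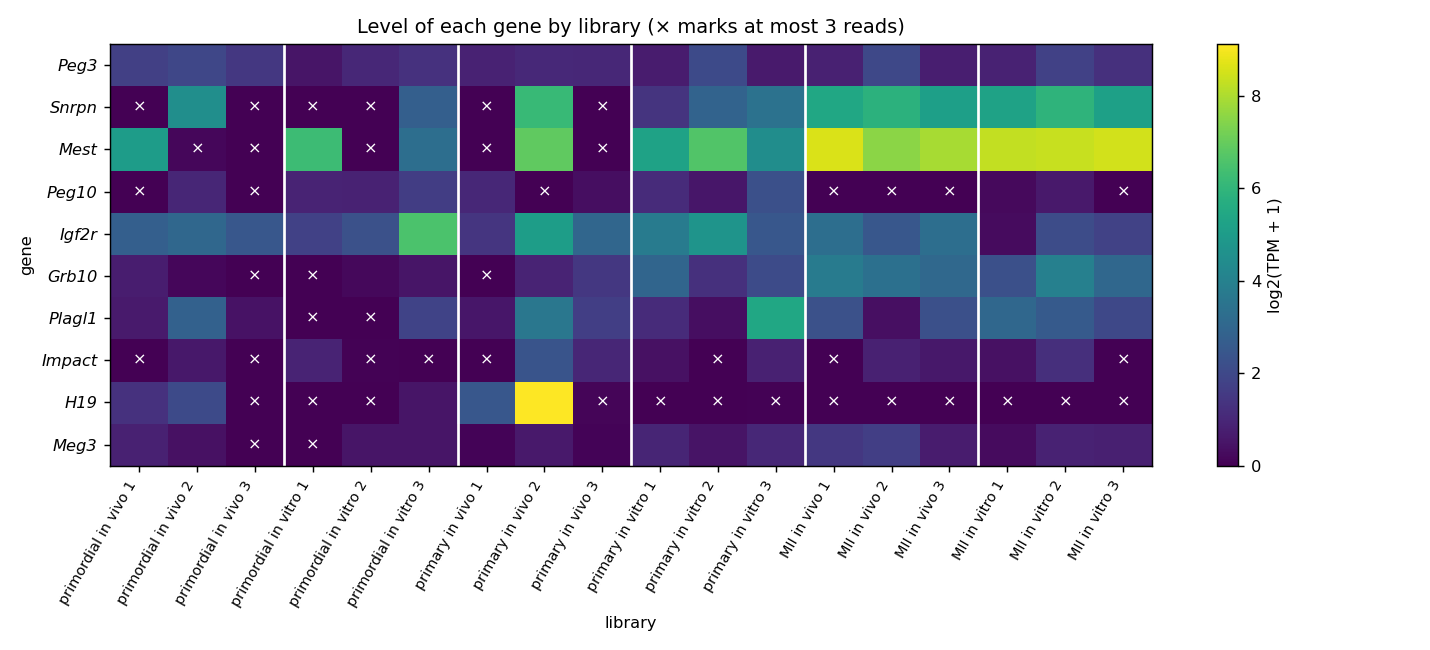
Level of each gene (rows) as log2(TPM + 1) by colour in each of the 18 libraries (columns), grouped by stage and growth; a cross marks at most 3 reads. Crosses are spread through the LCM columns, and in the MII columns they fall on H19, Peg10 and Impact only; the brightest LCM cell is H19 in primary *in vivo* library 2 at 557 TPM.

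When the 6 groups were ordered by mean TPM for each gene, nearly all neighbours in the order overlapped in their libraries. Mest was the exception at the top, as MII *in vivo* oocytes, at 274 ± 107 TPM (SD, n = 3), lay wholly above the next group, primary *in vitro*, at 52.8 ± 41.3 TPM. Igf2r was the exception at the bottom, as MII *in vitro* oocytes, at 1.99 ± 1.61 TPM, lay wholly below primordial *in vivo*, at 5.88 ± 1.27 TPM. For Grb10 the order ran from 0.200 ± 0.226 TPM in primordial *in vitro* to 9.90 ± 2.67 TPM in MII *in vivo* oocytes, and each step overlapped with the next. Peg10 ran the other way, from 1.78 ± 1.69 TPM in primary *in vitro* and 1.29 ± 0.724 TPM in primordial *in vitro* to no read in MII *in vivo* oocytes. Steps between LCM and MII groups also cross the change of kit.

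Culture was compared at the MII stage with edgeR's quasi-likelihood test over 17144 genes. A positive log2 fold change means a higher level *in vitro*, and a call needed a 2-fold change together with an adjusted p (Benjamini-Hochberg) below 0.05. None of the 9 genes tested was called, with adjusted p from 0.387 to 0.989, beside 60 genes or 0.350% of all genes tested. By unadjusted p under 0.05, 1 of the 9 passed, beside 10.2% of all genes. DESeq2 called 0 of the 8 genes for which it gave an adjusted p, beside 2.28% of all genes. With 3 libraries against 3, an exact permutation test of a single gene cannot go below p = 0.1. In these bulk samples, fewer oocytes with a transcript and less of it per oocyte cannot be told apart.

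Among the paternally expressed genes, Mest and Snrpn gave the narrowest errors. The log2 fold change of Mest was 0.31 ± 0.38 (SE; adjusted p = 0.836) and that of Snrpn 0.03 ± 0.39 (adjusted p = 0.989), so the sign of Snrpn is not resolved. Peg3 was likewise near 0, at 0.08 ± 0.69 (adjusted p = 0.984), with 38, 115 and 32 reads *in vivo* and 47, 111 and 61 *in vitro*. Plagl1 stood at 1.08 ± 0.78 (adjusted p = 0.643), and its *in vivo* library 2, with 7 reads, lay far below the other 5, with 75 to 239. Without that library the log2 fold change was 0.55, and it ran from 0.47 without *in vitro* library 1 to 1.60 without *in vivo* library 1. Impact rested on at most 16 reads in a library, and its value of 0.40 ± 2.01 (adjusted p = 0.971) had an error larger than itself. For Peg10, read only *in vitro*, the ratio of group means against a floor of 3 counts per library was at least 1.76-fold higher *in vitro*, and the fitted value of 5.49 ± 2.67 (adjusted p = 0.504) depends on how zeros are handled.

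Among the maternally expressed genes, Igf2r had the smallest p. It had 300, 129 and 284 reads *in vivo* and 8, 110 and 76 *in vitro*, and the groups did not overlap. The mean was 7.47 ± 2.50 TPM *in vivo* and 1.99 ± 1.61 TPM *in vitro* (SD, n = 3 each), and the log2 fold change was -2.02 ± 0.71. Its unadjusted p of 0.0129 from edgeR became 0.387 after adjustment over all genes, so Igf2r was not called. Groups that did not overlap, with the *in vitro* libraries lower, were found in 6.81% of all genes tested, and in 16.2% in either direction. Without *in vitro* library 1, the one with 8 reads, the log2 fold change was -1.50 (adjusted p = 0.501 by edgeR). Airn, which runs antisense through Igf2r, was low in both groups, at 0.0825 to 3.09 TPM *in vivo* and 1.28 to 2.64 TPM *in vitro*.

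Meg3 was lower on average *in vitro* too, but its groups overlapped. It had 116, 120 and 37 reads *in vivo* and 15, 54 and 44 *in vitro*, and its log2 fold change was -1.44 ± 0.72 (adjusted p = 0.504). Grb10 had 414, 252 and 233 reads *in vivo* and 141, 467 and 218 *in vitro*, and its log2 fold change was -0.29 ± 0.47 (adjusted p = 0.888). H19 had no read and could not be tested. Over the 9 genes the median log2 fold change was 0.08, against 0.04 over all genes tested.

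**Figure D3:**
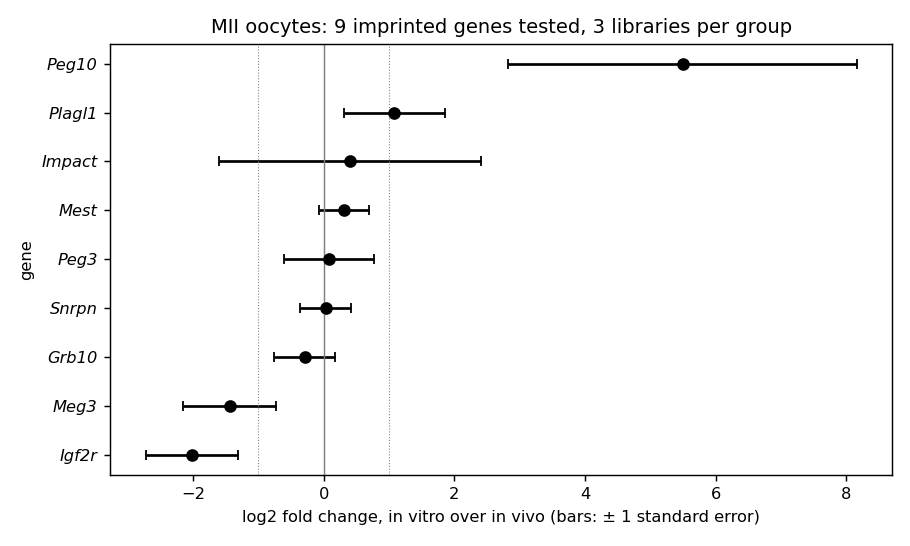
Log2 fold change of MII oocytes, *in vitro* over *in vivo*, for the 9 genes tested (edgeR, 3 libraries per group); points are estimates, bars ± 1 SE, and dotted lines mark a 2-fold change. Igf2r at -2.02 and Meg3 at -1.44 lie lowest, Mest, Peg3, Snrpn and Grb10 lie within 0.31 of 0, and the bar of Peg10 is the widest.

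A list of 56 other imprinted genes was read in the same fit, and 34 of them could be tested at the MII stage. None was called by edgeR (0.350% of all genes), 4 passed an unadjusted p under 0.05 (10.2% of all genes), and DESeq2 called 3 of the 30 for which it gave an adjusted p (2.28% of all genes). The smallest p belonged to Asb4, a substrate receptor of ubiquitin ligases that lies in the same imprinted domain as Peg10. Asb4 measured 28.3, 22.7 and 28.6 TPM *in vivo* and 83.9, 81.0 and 82.0 TPM *in vitro*, so the groups were far apart relative to their own spread. Its log2 fold change was 1.70 ± 0.35 with an adjusted p of 0.0656 by edgeR, just above the threshold, and 0.000684 by DESeq2.

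Trappc9, a subunit of a vesicle tethering complex, came next at -1.51 ± 0.42 (adjusted p = 0.216 by edgeR and 0.031 by DESeq2). It measured 12.1, 38.6 and 32.0 TPM *in vivo* and 6.23, 13.4 and 8.27 TPM *in vitro*. Phlda2, a growth restrainer of the placenta and the other gene called by DESeq2, measured 36.4, 43.7 and 34.0 TPM *in vivo* and 60.4, 132 and 111 TPM *in vitro* (log2 fold change 1.41, adjusted p = 0.24 by edgeR and 0.033 by DESeq2). All 3 are listed as maternally expressed, with Asb4 and Phlda2 higher and Trappc9 lower *in vitro*. Groups did not overlap for 4 of the 34 with *in vitro* libraries higher and for 5 with them lower, and the shares over all genes were 9.37% and 6.81%. The median log2 fold change of the 34 was 0.16.

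**Figure D4:**
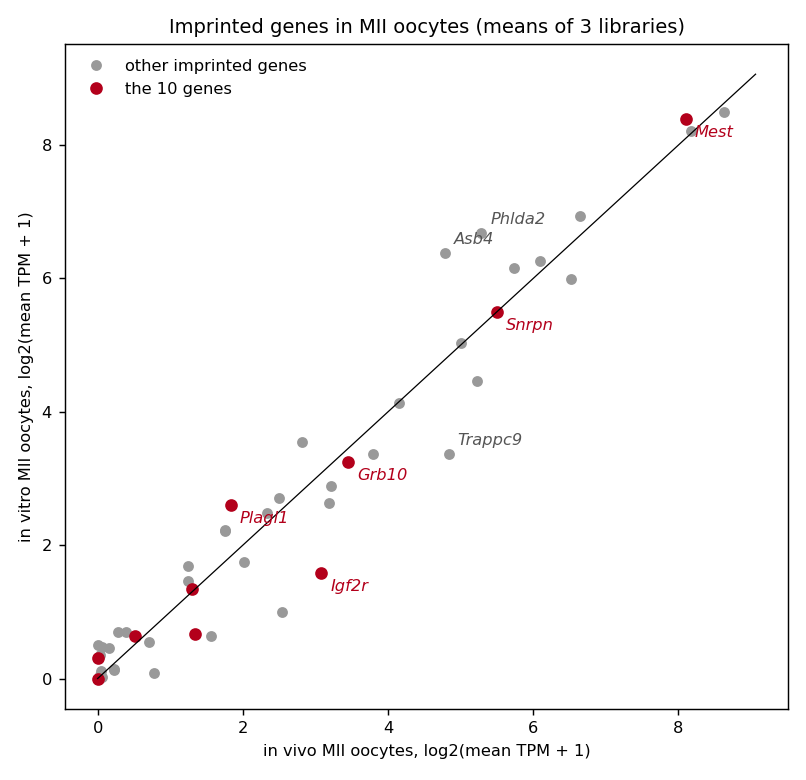
Mean level in MII oocytes, *in vitro* (vertical) against *in vivo* (horizontal), as log2(mean TPM + 1) of 3 libraries, for the 10 genes (red) and the other imprinted genes (grey); the line marks equality. Mest and Snrpn lie on or near the line, Igf2r falls below it (7.47 against 1.99 TPM), and Asb4 and Phlda2 lie above it.

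In LCM oocytes 1 fit of the 12 libraries over 15317 genes gave the effect of culture at each stage, the effect of stage within each growth condition, and the difference between the culture effects (interaction). The spread was far wider than in MII oocytes, with a biological coefficient of variation (the typical relative SD between libraries in edgeR) of 2.02 against 0.726. None of the 10 genes was called by edgeR in any of these 5 comparisons.

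In oocytes of primordial follicles, adjusted p ran from 0.753 to 1, and 0 of the 10 genes passed an unadjusted p under 0.05, where 11.7% of all genes did. Over all genes 5, or 0.0326%, were called by edgeR and 9.30% of those with an adjusted p by DESeq2, which called 0 of the 9 genes it adjusted. The smallest p was that of H19, with 25, 54 and 0 reads *in vivo* and 0, 0 and 7 *in vitro* (log2 fold change -3.12 ± 3.15, adjusted p = 0.753). Leaving out single libraries moved it from -7.58 without *in vitro* library 3, which held all the *in vitro* reads, to -2.19 without *in vivo* library 2. Peg3 had 215, 264 and 177 reads *in vivo* and 26, 118 and 124 *in vitro*, and all *in vitro* libraries were lower (0.414 to 1.45 TPM against 1.80 to 2.81 TPM). Such a pattern was seen in 4.55% of all genes. Peg10 had 0, 45 and 0 reads *in vivo* and 28, 48 and 91 *in vitro*. On the plain CPM scale its *in vivo* library 2 lay at 1.88 and the lowest *in vitro* libraries at 1.64 and 1.85, but the groups parted after TMM normalization, with *in vitro* higher, as in 2.04% of all genes.

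In oocytes of primary follicles, H19 gave the largest difference of any of the 10 genes, and 1 library made most of it. H19 had 78, 10000 and 1 reads *in vivo* and 0, 0 and 1 *in vitro*. Primary *in vivo* library 2 measured 557 TPM, against 4.56 and 0.0794 TPM in its partners. In the same library the 10 stroma and theca markers summed to 29940 TPM, with Acta2, the smooth muscle actin, at 18520 TPM and Col1a1, a fibrillar collagen, at 9734 TPM, and 8 of the 10 were over 3 reads. Of the steroid-forming theca markers on that list, Cyp11a1 had 200 reads (5.70 TPM), its highest LCM count, and Star and Cyp17a1 were at 0. Of 12 oocyte markers, 10 were over 3 reads there. The partners of this library had marker sums of 645 and 453 TPM, with Acta2 at 2 and 3 reads. The part of cells that carry these markers in the level of H19 was not tested. The log2 fold change was -13.03 ± 4.70 (unadjusted p = 0.0056, adjusted p = 0.44 by edgeR). No primary *in vitro* library was over 3 reads, so all fitted values of H19 that use this group depend on how zeros are handled. With library 2 included, the ratio of group means against a floor of 3 counts per library was at least 1270-fold higher *in vivo*. DESeq2 called it (adjusted p = 0.000621). Without library 2 the log2 fold change was -7.16 (adjusted p = 0.398 by edgeR), which rests on 78 reads in library 1. The groups did not overlap by the margin between 1 read *in vivo* and 1 read *in vitro* in libraries of different depth, and *in vitro* lower was seen in 1.25% of all genes.

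**Figure D5:**
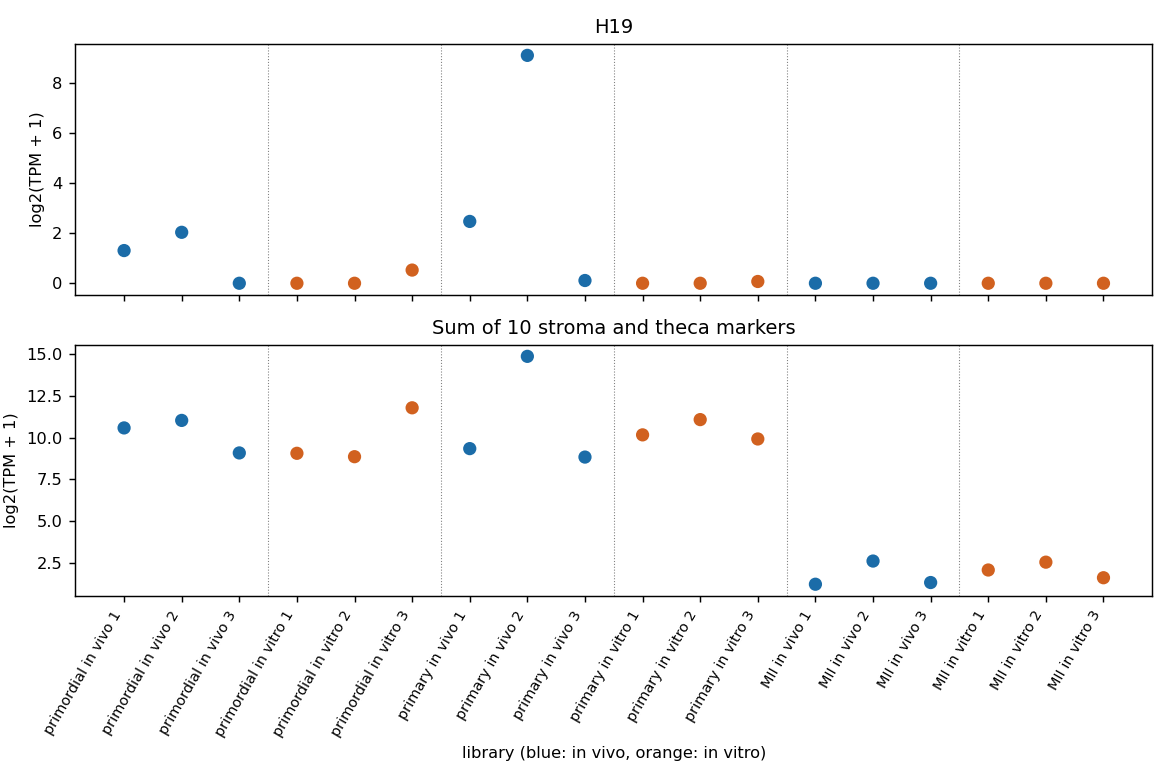
H19 (upper panel) and the sum of 10 stroma and theca markers (lower panel) as log2(TPM + 1) in each of the 18 libraries; blue is *in vivo* and orange *in vitro*. Primary *in vivo* library 2 is the highest in both panels, at 557 TPM and 29940 TPM, and all 6 MII libraries are at 0 for H19 and at most 5.02 TPM for the marker sum.

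The same library was also the highest LCM library for Mest (118 TPM), Snrpn (70.5 TPM) and Impact (4.23 TPM). Among other imprinted genes, looked up after the values of H19 were seen, Igf2, the neighbour of H19, reached its LCM maximum there with 238 reads (5.70 TPM). Across the other 9 genes at the primary stage, adjusted p lay between 0.927 and 1. In all, 1 of 10 passed an unadjusted p under 0.05, where 9.66% of all genes did, 0 genes or 0% of all tested were called by edgeR, and DESeq2 called 2.86% of those it adjusted. The median log2 fold change was 0.45 over the 10 genes and 0.44 over all genes tested. Peg3, Igf2r, Plagl1, Meg3, Mest, Snrpn, Peg10 and Grb10 were over 3 reads in all 3 *in vitro* libraries, whereas *in vivo* this held for Peg3, Igf2r, Plagl1 and Meg3. The *in vitro* libraries had reads of 12955, 10565 and 13755 genes, and the *in vivo* libraries of 6048, 12240 and 8385. The study also captured more oocytes of primary follicles *in vitro* than *in vivo*. The part of either difference in the detection of the 10 genes was not tested. The share of all genes with this pattern was not taken.

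Between the stages *in vivo*, 0 of the 10 genes passed an unadjusted p under 0.05 (11.2% of all genes), and adjusted p was 0.461 or above, beside 8 genes or 0.0522% called by edgeR among all genes. DESeq2 called none of the 9 it adjusted, beside 6.42% overall. H19 again had the smallest p, with a log2 fold change, primary over primordial, of 7.04 ± 3.78 (adjusted p = 0.461), which was 1.16 (adjusted p = 0.951) without primary *in vivo* library 2. Peg3 was lower at the primary stage in every library, at 0.853 to 1.07 TPM against 1.80 to 2.81 TPM, a pattern shared by 4.02% of all genes, and its log2 fold change was -1.16 ± 3.21 (adjusted p = 0.989).

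Between the stages *in vitro*, Grb10 had the smallest p. It had 0, 12 and 26 reads at the primordial and 436, 96 and 240 at the primary stage, so that 0 to 0.444 TPM stood against 1.40 to 6.94 TPM. The log2 fold change was 3.91 ± 3.50 (adjusted p = 0.76 by edgeR and 0.443 by DESeq2), and primary libraries wholly higher were seen in 9.87% of all genes. Leaving out single libraries moved it from 3.33 without primordial library 1 to 5.22 without primordial library 3. No gene of the 10 passed an unadjusted p under 0.05 (10.9% of all genes), 0% of all genes were called by edgeR, and DESeq2 called 0 of 9, beside 5.32% overall. In vivo, Grb10 had 40, 8 and 0 reads at the primordial and 0, 59 and 82 at the primary stage, and the groups overlapped.

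The culture effects of the 2 stages were set against each other in the interaction. H19 was the gene with the smallest p, at -9.92 ± 4.83 (unadjusted p = 0.0402, adjusted p = 0.402 by edgeR), -4.04 (adjusted p = 0.725) without primary *in vivo* library 2 and -5.46 (adjusted p = 1) without primordial *in vitro* library 3. It was the 1 of 10 past an unadjusted p under 0.05 (11.5% of all genes), and 0 were called, beside 0.104% of all genes by edgeR and 6.24% by DESeq2. Median log2 differences over the 10 genes were -0.25 for culture at the primordial stage, 1.47 for stage *in vivo*, 0.62 for stage *in vitro* and -0.64 for the interaction, against 0, 0, 0.44 and 0.91 over all genes. The stage *in vivo* and interaction medians include primary *in vivo* library 2. That library held all primary *in vivo* reads of Mest (3392) and Snrpn (1111), and 10000 of those of H19. No median was taken without it, so the stage *in vivo* value is not read as a rise of these genes.

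Of the 56 other imprinted genes 44 could be tested in LCM oocytes, and edgeR called 0 in each of the 5 comparisons, with 4 or 5 past an unadjusted p under 0.05 in each, where 9.66% to 11.7% of all genes passed. The all-or-none scatter, which was not particular to imprinted genes, was seen here too. Cdkn1c, an inhibitor of cyclin-dependent kinases, had 9, 1649 and 2700 reads in primordial *in vivo* and 0, 0 and 3 in primordial *in vitro* libraries, and 0, 3 and 3 in primary *in vivo* and 27, 0 and 19 in primary *in vitro* libraries. At the primordial stage its log2 fold change was -10.28 ± 4.57 (adjusted p = 0.363 by edgeR and 0.000472 by DESeq2), and in the interaction 12.58 (adjusted p = 0.333 and 0.00541). Dlk1, a Notch-like ligand of the Meg3 domain, had the smallest p for culture at the primordial stage, at -11.39 (adjusted p = 0.359 by edgeR), with 1141 of its reads in primordial *in vivo* library 2, 30 in library 1 and none *in vitro*, and at -6.89 without library 2.

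Nnat, a small membrane protein of the endoplasmic reticulum, was absent from 5 of 6 primordial libraries, with 1 read in the sixth. At the primary stage it had 0, 2690 and 0 reads *in vivo* and 1856, 0 and 2701 *in vitro*. Its log2 fold change between the stages by edgeR was 10.93 *in vivo* (adjusted p = 0.38 by edgeR and 0.0521 by DESeq2) and 13.12 *in vitro* (adjusted p = 0.384). DESeq2's own estimate *in vitro* was 26.57 (adjusted p = 1.62e-09). As no primordial *in vitro* library had a read of Nnat, the size of both *in vitro* estimates depends on how zeros are handled. Without primary *in vivo* library 2 at most 1 read was left in either *in vivo* group, and no fold change is given. The other genes named by their p each had most of their reads in a single library. Sfmbt2 had 251 reads in primary *in vivo* library 2 and Dio3 527 in primary *in vitro* library 1, and their culture effects at the primary stage were -9.29 and 10.07 (adjusted p = 0.44 each by edgeR). Without these libraries Sfmbt2 had 1 read left at the primary stage, and the value of Dio3 was 4.34. Slc22a3 had 138 reads in primary *in vivo* library 2 (stage *in vivo*, 8.42, adjusted p = 0.381) and no read in the other 5 *in vivo* libraries of the 2 stages. Rasgrf1 had 203 reads in primary *in vitro* library 1 (stage *in vitro*, 8.67, adjusted p = 0.384) and no read in any other LCM library. Peg12 had 12 reads in primordial *in vitro* library 1 and 4 in primary *in vivo* library 2 (interaction, -9.23, adjusted p = 0.334, and -5.74 without that primary library). DESeq2 called 5 of the 24 it adjusted at the primordial stage (9.30% of all genes), namely Cdkn1c, Nnat, Blcap and Inpp5f lower and Slc38a4 higher *in vitro*, none for culture at the primary stage (2.86%), and 1 of 24 in each remaining comparison, Cdkn1c for stage *in vivo* (6.42%) and the interaction (6.24%) and Nnat for stage *in vitro* (5.32%). The Nnat call at the primordial stage set groups with at most 1 read against each other.

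For the 3 genes with the highest mean log2 CPM, the genes of most similar pattern were found by Pearson correlation, as a description. Over the 18 libraries, which include the change of kit, Mest was closest to Mrpl13 (0.922), Acadm (0.899) and Ccdc34 (0.893), and over the 12 LCM libraries to Arrb2 (0.953), Col11a1 (0.946) and Aph1a (0.939). Igf2r was closest to Kctd12 in both (0.801 and 0.926), followed by Dlg4 (0.776) and Tmem98 (0.774) over 18 and by Napg (0.913) and Rarres2 (0.912) over 12 libraries. Peg3 had the weakest partners, with ENSMUSG00000105383 (0.722), Myo15b (0.72) and Wdr62 (0.718) over 18 and Akr1a1 (0.847), Gm34933 (0.84) and Ints1 (0.808) over 12 libraries. The points share library depth and the pattern of genes that dropped to 0, and Rarres2 had 29 reads in all over the LCM libraries.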

How the data were processed

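Per the submitters' processing notes, reads were trimmed (Trim Galore 0.4.1), aligned to mm10 (TopHat2) and assigned to genes (featureCounts). The authors deposited the resulting counts without normalization. The TPM values were also deposited by the authors and are scaled per gene length and library. Strand and the treatment of multi-mapping reads are not given in the sources used here. Every column of values was mapped to a sample, and 0 were left unused.

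Counts of the 12 LCM libraries and of the 6 MII libraries were fitted apart with edgeR 4.0.16 in R 4.3.3 (TMM normalization, glmQLFit with robust estimation, glmQLFTest), keeping genes whose counts summed to 10 or more. The SE is the log2 fold change over the root of the quasi-likelihood F. DESeq2 1.42.0, limma 3.58.1 on log2(TPM + 1) and log2(TPM + 0.1), other scaling and filters, a replicate block, a fit of all 18 libraries and leaving out each library were alternatives. The edgeR fit was also run on simulated counts, with the same spread for all genes and changes set only in well-read genes. That setting is simpler than these data, and no result here rests on it. Pattern likeness was taken on log2 CPM (prior count 2). Positions come from GENCODE on GRCm38, which matched 53620 of 53715 identifiers, and promoters from RefSeq.

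The 10 genes, the list of other imprinted genes and the markers were chosen with earlier results of these data known. All 56 listed genes were matched. By rule, all 10 genes are named with all MII tests, in LCM comparisons the gene with the smallest p, and of the other imprinted genes those called or else the 2 with the smallest p; others named for a pattern were chosen after their values were seen.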

Additional observations from a re-analysis of the deposited data

How the results depend on the processing

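In the MII libraries Impact and Peg10 had no more than 16 reads, and the part of library depth in this was not tested. With a minimum of 10 counts, the median number of the 10 genes detected in an MII library was 7, against 8 above 3 counts. None of the 10 genes was called under the alternatives run, apart from 1 at the primary stage with DESeq2 (H19) and 1 at the MII stage without a filter on low counts (Igf2r, adjusted p = 0.0385 by edgeR; 0.116 to 1 under its other alternatives that kept all libraries). Of the other imprinted genes, DESeq2 called 5 for culture at the primordial stage, 1 for stage *in vivo*, 1 for stage *in vitro*, 1 for the interaction and 3 at the MII stage, where no filter on low counts gave 2 (Asb4 and Trappc9). Leaving out single libraries gave 0 to 2 there, the 2 (Asb4 and Trappc9) without MII *in vivo* library 1. The cause was not tested.

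Near 0, signs turned at the MII stage. Scaling by library size alone gave Peg3 a log2 fold change of -0.008 and Snrpn one of -0.014, and limma gave Snrpn -0.015 with a pseudocount of 1 and -0.016 with 0.1. Leaving out single libraries gave -0.27 to 0.95 for Peg3, -0.16 to 0.20 for Snrpn, -0.761 to 0.064 for Grb10 and -0.83 to 1.13 for Impact. Scaling by library size alone moved the median log2 fold change of all genes by 0.28 for culture at the primary stage, 0.38 for stage *in vitro* and 0.35 for the interaction, and DESeq2's size factors moved them by -0.18, -0.15 and -0.25. Peg10 had no value without MII *in vitro* library 2.

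The count over all genes depended on the tool. DESeq2 called 812, 244, 561, 454, 558 and 337 genes for culture at the primordial and primary stage, stage *in vivo*, stage *in vitro*, interaction and MII, against 5, 0, 8, 0, 16 and 60 by edgeR. At the MII stage no filter gave 263, limma with a pseudocount of 1 gave 29, the fit of all 18 libraries gave 0, and leaving out single libraries gave 11 (without *in vitro* library 3) to 378 (without *in vivo* library 1). Leaving out single LCM libraries gave 0 to 13, 0 to 4, 0 to 11, 0 to 2 and 0 to 20 in the 5 LCM comparisons in that order. The fit of all 18 libraries, no filter, filterByExpr and limma gave 0 or 1 in the 3 LCM comparisons in which edgeR made calls.

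With the replicate number as a block, Asb4 was called at the MII stage (1 of the other imprinted genes, adjusted p = 0.0477 by edgeR), and no other call of a listed gene changed. The block gave 1 gene for culture at the primordial stage and 0 for stage *in vivo* and the interaction. Same-numbered libraries had correlations of their deviations from group means from -0.027 to 0.09. With means of 3 widely scattered libraries, these values cannot show whether same-numbered libraries share animals or a batch.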
